A study of Homo sapiens with 4 samples.

Results

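The mRNAs of the collagen chains were examined for enrichment of N7-methylguanosine (m7G), the methylated guanine that forms the mRNA cap and has also been mapped inside mRNA. Untreated U2OS cells, an established human osteosarcoma line, gave poly(A) RNA for immunoprecipitation (IP) with an anti-m7G antibody. The series holds 2 IP libraries and 2 input libraries of the same untreated cells, with no mutant, treated or other cell line. The values used are the authors' own peak calls, 1 table for each IP replicate, which gives every peak its position, p-value and fold (IP relative to input). The members were all rows whose gene name is COL, digits, A, digits: 65 of 4326 peaks in replicate 1 and 63 of 4862 in replicate 2. The RefSeq gene table lists 44 collagen chain genes, and 20 of them had a peak in at least 1 table. No counts were given, so the depth behind a peak is unknown and no interval can be set on its fold. Nothing in the labels ties the replicates to separate cultures, so differences between them may be technical only.

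Collagens are the main structural proteins of the extracellular matrix, and type I collagen is the chief protein of bone. Their chains wind into a triple helix, in which every glycine of a Gly-X-Y repeat sits at the centre of the rope. Each repeat is coded by 9 nt, and many collagen genes split this code into short exons whose lengths are multiples of that unit. The families differ in where the helix goes: fibrils, basement membrane networks, beaded filaments, anchoring fibrils, linkers on fibril surfaces (the FACIT collagens), cell membranes, or basement membrane zones (the multiplexins).

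Peaks of both replicates that shared at least 1 base of 1 strand (a same-place peak) were present on 19 of the 44 collagen chains (43.2%). Of all 20056 annotated protein-coding genes, 10.5% had one. By table, 20 chains (45.5%) had a peak in replicate 1 and 19 (43.2%) in replicate 2, beside 15.9% and 17.4% of all protein-coding genes. The tables hold no expression level, so a chain with no peak may be silent in these cells or expressed without enrichment. By family, a same-place peak was present on 6 of 11 fibrillar chains, 3 of 9 basement membrane and network chains, 3 of 5 beaded filament chains and 3 of 10 FACIT chains. The anchoring fibril chain COL7A1 and both multiplexins, COL15A1 and COL18A1, had one, as did COL13A1 among 4 transmembrane chains. COL5A3 had 3 peaks in replicate 1 and none in replicate 2.

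The other 24 chains had no row in either table. These were COL1A2, COL2A1, COL11A2 and COL24A1 of the fibrillar group, COL4A3, COL4A4, COL4A5, COL4A6, COL8A2 and COL10A1 of the network group, and COL6A5 and COL6A6 of the beaded filament group. The rest were COL9A1, COL9A3, COL12A1, COL14A1, COL19A1, COL20A1 and COL21A1 (FACIT), COL17A1, COL23A1 and COL25A1 (transmembrane), and COL26A1 and COL28A1. Partners of one protein could differ: COL1A1 had peaks in both tables and COL1A2, the other chain of type I collagen, had no row. For type V, COL5A1 and COL5A2 had same-place peaks, and for type VI so did COL6A1, COL6A2 and COL6A3. A missing row says only that no peak passed the authors' threshold. The weakest false discovery rate among collagen peaks was 0.0309 in replicate 1 and 0.0389 in replicate 2.

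Some of these chains lie side by side in the genome. COL4A1 and COL4A2, the chains of the common type IV collagen of basement membranes, run in opposite directions on chromosome 13 from starts that are 126 bases apart. The bases between these starts are shown because both genes leave from them and both carried peaks (GRCh38.p14 from RefSeq, chr13:110307158-110307283, plus strand, capitals mark a CCAAT box and a GC box):
COL4A1-COL4A2: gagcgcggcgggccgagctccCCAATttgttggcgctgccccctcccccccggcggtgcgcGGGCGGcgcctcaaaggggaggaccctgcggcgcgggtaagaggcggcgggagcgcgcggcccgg
The words searched on both strands were CCAAT and GGGCGG, which do not overlap here, and each was found in 1 place. In windows of 126 bases before all 35116 RefSeq starts in the table, CCAAT was found in 21.1% and GGGCGG in 34.6%. Peaks of the gene pair were not alike in position. The first COL4A2 peak began 90 nt inside the annotated gene start in both replicates, while the nearest COL4A1 peak began 99712 nt from its start in replicate 1 and 99682 nt in replicate 2. Both other type IV gene pairs with adjoining starts, COL4A3 with COL4A4 and COL4A5 with COL4A6, had no row.

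Collagen peaks were split into more pieces than those of other genes. A peak in the tables is listed as 1 or more blocks, and a gap between blocks is genomic sequence that the peak skips, such as an intron. More than 1 block was listed for 57 of 65 collagen peaks in replicate 1 (87.7%) and 56 of 63 in replicate 2 (88.9%), beside 1276 of 4261 (29.95%) and 1630 of 4799 (33.97%) of the peaks on other genes. The median collagen peak had 4 blocks in both tables, and the median of other peaks was 1. At least 5 blocks were listed for 41.5% of collagen peaks in replicate 1 and 34.9% in replicate 2, beside 0.868% and 1.15% of other peaks. Of the peaks with at least 10 blocks, 6 in replicate 1 and 7 in replicate 2 were on collagen chains, beside 3 and 2 on all other genes together.

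**Figure D1:**
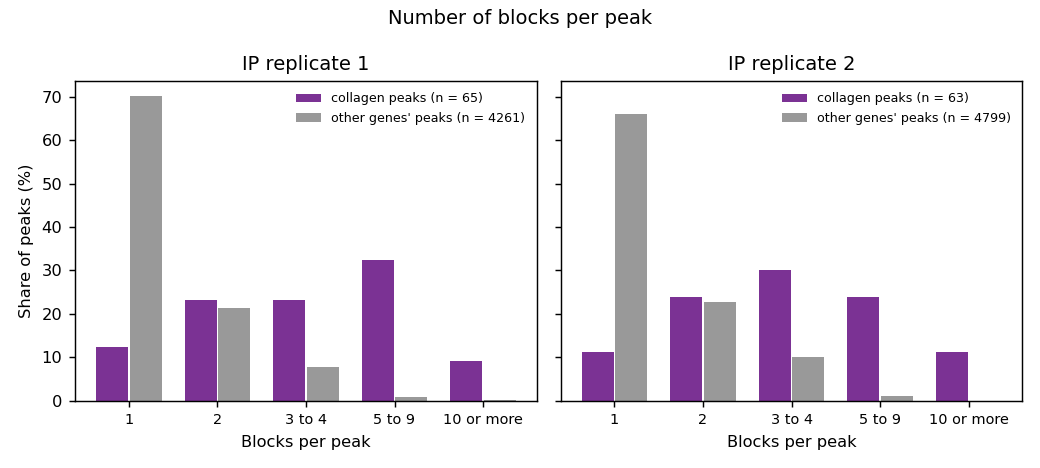
Share of peaks (%) by number of blocks per peak in IP replicate 1 (left panel) and IP replicate 2 (right panel), with collagen peaks in purple and peaks of other genes in grey. In replicate 1, 9.23% of collagen peaks and 0.0704% of other peaks had 10 or more blocks, and in replicate 2 11.1% and 0.0417%.

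The peak with the most blocks in either table was on COL1A1, the pro-alpha chain that makes up most of type I collagen. It had 46 blocks covering 3473 nt in replicate 1 (chromosome 17 from 50186496 to 50199433, minus strand) and 48 blocks covering 3623 nt in replicate 2 (from 50186436 to 50199787). Every base of the replicate 1 peak lay in the replicate 2 peak, with folds of 2.31 and 2.38. The chains of type VI collagen, which forms beaded filaments around cells, also had long peaks. COL6A1 had a peak of 24 blocks in replicate 1 and 25 in replicate 2, COL6A2 one of 21 and 20, and COL6A3 one of 15 in both. TNNT1, a troponin gene, had the largest number of blocks outside the collagens, 14 in both tables. Collagen peaks were 1.503% of all peaks in replicate 1 and 1.296% in replicate 2, but held 2.56% and 2.43% of all covered bases.

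The lengths of the blocks were then examined. Blocks at either end of a peak are cut where the peak stops, so only inner blocks, with a block on both sides, were measured, each position once. They have the lengths of whole exons if the gaps on both sides are introns. Of 294 inner blocks of collagen peaks, 242 (82.3%) had a length that is a multiple of 9. In peaks of other genes this was so for 117 of 976 (11.99%). The commonest collagen length was 54 nt, in 83 blocks (28.2%), beside 6 of 976 (0.615%) in other genes. Further collagen blocks were 45 nt long in 38 cases and 36 or 63 nt long in 56. Multiples of 3, which keep the reading frame across an exon, made up 94.6% of collagen inner blocks and 38.7% of the others. The share of multiples of 9 was 82.8% in replicate 1 and 81.4% in replicate 2 for the collagens, beside 11.4% and 12.1% for other genes, and 80.2% without COL1A1. Exon models were not used here, so the share over collagen exons without a peak was not measured.

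**Figure D2:**
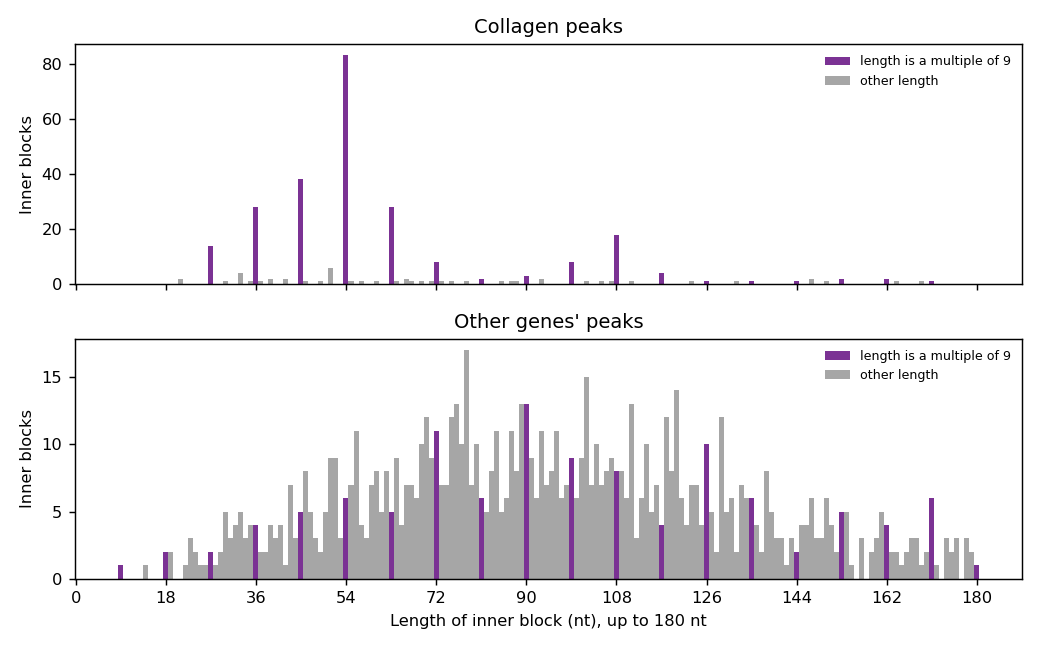
Number of inner blocks (y axis) by length in nt (x axis, lengths up to 180 nt) in collagen peaks (upper panel) and in peaks of other genes (lower panel), over both IP replicates with each position once. Purple bars are multiples of 9, which hold 82.3% of all collagen inner blocks and 11.99% of the others, and the tallest collagen bar is the 83 blocks of 54 nt.

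The families differed in these lengths. In fibrillar chains 87 of 90 inner blocks (96.7%) were multiples of 9 and 53 (58.9%) were 54 nt long. COL5A1 had 18 of 18 multiples of 9, COL27A1 16 of 16 and COL1A1 43 of 46. In beaded filament chains 46 of 55 (83.6%) were multiples of 9, and 27 were 36 or 63 nt long. FACIT chains had 37 of 45 (82.2%), COL7A1 22 of 27 (81.5%) and COL13A1 12 of 15 (80%). The type IV chains stood lowest, with 18 of 33 (54.5%) on COL4A2 and 8 of 16 (50%) on COL4A1. Type IV collagen is known for interruptions of the Gly-X-Y repeat and for exons that do not keep to the unit of the fibrillar genes. COL8A1, a network collagen known for coding most of its chain in 1 exon, had 1 peak of 1 block in each table.

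Along the gene, collagen peaks placed by their middle lay mostly between the ends. Distances were taken from the middle base of the bases in both replicates, in genomic nt, with introns included. Of 41 shared collagen peaks, 2 (4.88%) lay within 200 nt of the annotated gene start, on COL1A1 and COL5A1, beside 24.0% of 2598 shared peaks on other genes. Within 1000 nt of the gene end lay 1 (2.44%), on COL1A1, beside 15.7%. The first 10% of the gene span held 3 of 41 (7.32%), beside 41.4% for other genes, and the last 10% held 4 (9.76%), beside 22.9%. COL27A1 had the third peak of the first 10%, at 1851 nt from the start of the gene span and 412 nt from the nearest RefSeq start. The span of a gene with long introns is large, so a percentage of span is not a percentage of the mRNA. More than 1 block in both replicates was listed for 85.4% of shared collagen peaks and 30.1% of others. The middle of such a peak can lie far from where it begins, so these shares are not like for like. By the outer end, 3 shared collagen peaks lay within 200 nt of the gene start. The third was the first COL4A2 peak, whose middle lay 50265 nt from the start.

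**Figure D3:**
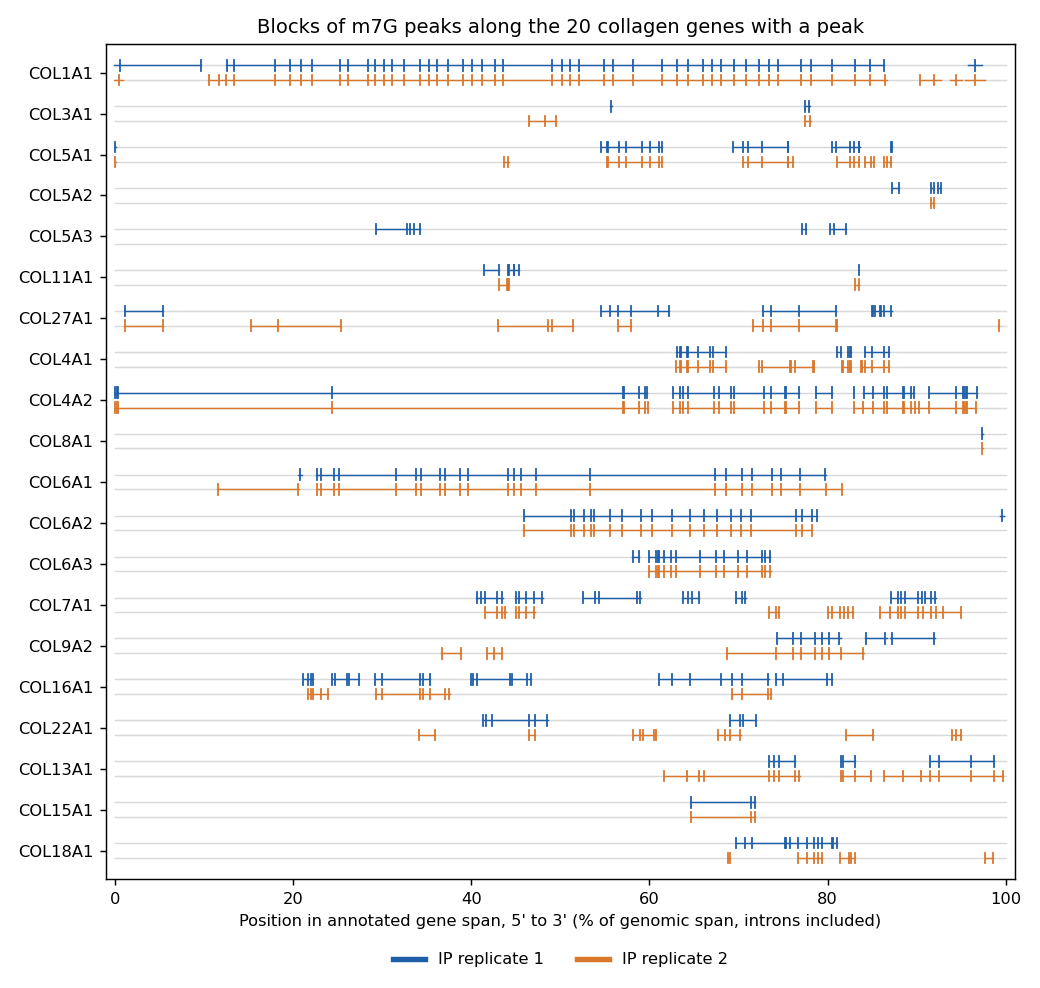
Blocks of every m7G peak on the 20 collagen genes with a peak, placed by position in the annotated gene span (x axis, % of genomic span from 5' to 3', introns included), with IP replicate 1 in blue above IP replicate 2 in orange for each gene. Vertical ticks mark the middle of each block and are not to scale, and horizontal lines join the blocks of 1 peak. The COL1A1 peak of 46 and 48 blocks runs through most of the gene, and COL5A3 has no peak in replicate 2.

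COL5A1 had a peak at its gene start. COL5A1 codes for a fibril-forming chain of type V collagen, which is known to start and limit type I fibrils. Its first peak was a single block of 300 nt with the same ends in both replicates (chromosome 9 from 134641805 to 134642104, plus strand), and the folds were 8.30 and 14.6. The sequence around this start is shown because the peak opens on it (GRCh38.p14 from RefSeq, chr9:134641735-134641834, plus strand, capitals mark the first 30 bases inside the peak of both replicates, with 70 bases before them):
COL5A1: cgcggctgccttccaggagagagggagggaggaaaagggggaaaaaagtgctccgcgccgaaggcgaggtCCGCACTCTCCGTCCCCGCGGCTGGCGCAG
The peak began 2 nt inside the start of the annotated gene span. The other COL5A1 peaks had lower folds, between 1.60 and 2.93 in replicate 1 and between 1.78 and 3.14 in replicate 2. COL5A1 had the most shared peaks of any collagen chain, 5, of 5 peaks in replicate 1 and 7 in replicate 2. On COL1A1 the order was different: its peak at the gene start had 1.94 and 1.76, below the peak toward the gene end with 4.60 and 6.38, whose middle lay 609 nt from the annotated end.

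Over all peaks, collagen peaks had a lower median fold than those of other genes. In replicate 1 the median was 2.97 for collagen peaks, with quartiles of 2.33 and 5.61, and 4.27 for other genes, with quartiles of 2.56 and 7.16. In replicate 2 it was 3.12 for collagen peaks (quartiles 2.27 and 5.02) and 3.48 for other genes (2.14 and 5.56). A fold of at least 4 was reached by 44.6% of collagen peaks in replicate 1 and 33.3% in replicate 2, beside 53.8% and 42.2%. Among shared peaks with more than 1 block in both tables, the median of the lower fold was 2.91 for 35 on collagen chains and 2.54 for 784 on other genes. Among those with 1 block in both it was 4.60 for 3 on collagen chains and 4.05 for 1558 on other genes, so peaks of several blocks had the lower medians in both sets. Within each of these block classes the collagen median was the higher one, though only 3 collagen peaks had 1 block in both. Over all 41 shared collagen peaks the median of the lower fold was also 2.91, beside 3.53 for 2601 others. By p-value, collagen and other peaks had near medians, with log10 p of -5.69 and -5.67 in replicate 1, and -6.22 and -5.92 in replicate 2.

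**Figure D4:**
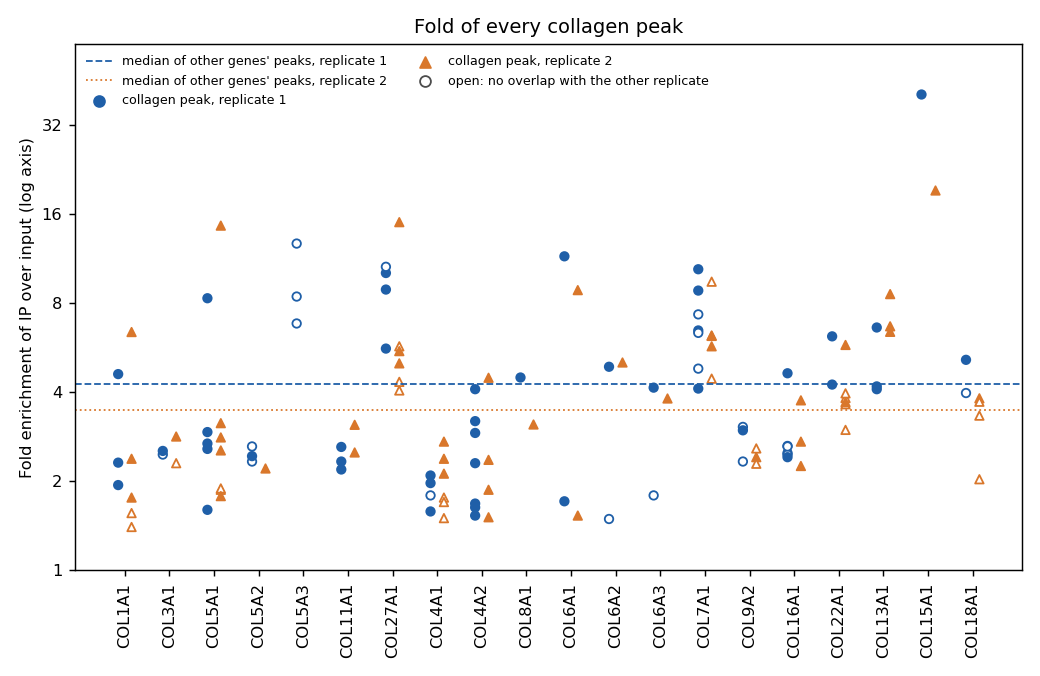
Fold enrichment of IP over input (y axis, log scale) of every collagen peak by gene, with circles for IP replicate 1 and triangles for IP replicate 2. Filled symbols overlap a peak of the other replicate and open symbols do not. Dashed and dotted lines are the medians of other genes' peaks, 4.27 in replicate 1 and 3.48 in replicate 2, and COL15A1 is highest with 40.7 and 19.3.

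COL15A1 had the highest collagen fold in both tables. It encodes a multiplexin of basement membrane zones, whose C-terminal fragment is called restin. Its only peak had the same outer ends and 3 blocks in both replicates, with every covered base shared (chromosome 9 from 99025911 to 99035102, plus strand), with folds of 40.7 in replicate 1 and 19.3 in replicate 2. This was also the largest gap between replicates among shared collagen peaks, 1.08 on the log2 scale. By fold the peak ranked at place 62 of 4326 in replicate 1 and 159 of 4862 in replicate 2. COL18A1, the other multiplexin and the source of endostatin, had 5.14 and 3.81 at its shared peak. Its last peak in replicate 2, with a fold of 3.33, also lay in the span of SLC19A1.

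Among fibrillar chains COL27A1, a cartilage-associated collagen, had the highest shared fold, 10.1 and 15 at the peak near its RefSeq start (chromosome 9 from 114155874 to 114162726 in replicate 1, plus strand). It had 4 peaks in replicate 1 and 6 in replicate 2, all with folds of at least 4.05, and 3 were shared. COL5A3, a minor chain of type V, had 6.82, 8.41 and 12.7 in replicate 1, with no row in replicate 2. Lower folds were listed for COL3A1, COL5A2 and COL11A1. COL3A1, the chain of type III collagen of soft tissues, had 2.53 and 2.83 at its shared peak, and COL5A2 had 2.43 and 2.21. COL11A1, which nucleates thin cartilage fibrils, had 2.61 and 3.10 at the stronger of its shared peaks. Its other pair, with 2.19 and 2.50, overlapped by 1 base.

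In the beaded filament group COL6A1 stood out by significance. Its long peak (chromosome 21 from 45987033 to 46000340 in replicate 1, plus strand) had folds of 11.5 and 8.84, with log10 p of -335 and -233. It ranked at place 5 of 4326 by p-value in replicate 1 and 13 of 4862 in replicate 2. A second, weaker peak just before it had 1.71 and 1.53. COL6A2 had 4.87 and 5.04 at its long peak (chromosome 21 from 46114058 to 46125480 in replicate 1, plus strand), ranked 37 and 32 by p-value. COL6A3, the largest chain, had 4.14 and 3.81 over 15 blocks in both replicates. All 3 long peaks covered nearly the same bases in each replicate, with 1079, 1017 and 750 bases in both tables.

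The basement membrane chains COL4A1 and COL4A2 had many peaks, most with folds below the median of other genes' peaks. COL4A2 had 7 peaks in replicate 1, with folds from 1.53 to 4.09, and 4 in replicate 2, from 1.51 to 4.47. The strongest lay toward the gene end, and the last peak of replicate 2, with 17 blocks, overlapped 3 separate peaks of replicate 1, one of them by 1 base. That last peak ranked 21 by p-value in replicate 2 and its strongest counterpart ranked 30 in replicate 1. Of the COL4A2 peaks, 3 in replicate 1 and 2 in replicate 2 also lay in the span of COL4A2-AS1 or COL4A2-AS2, and whether the library kept strand was not tested. COL4A1 had 4 and 6 peaks, with folds from 1.58 to 2.09 in replicate 1 and from 1.5 to 2.72 in replicate 2. COL8A1, a network collagen of vessels and the cornea, had 4.48 and 3.12.

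COL7A1, whose protein anchors the epidermis to the dermis, had the most collagen peaks in replicate 1 together with COL4A2, 7, and 5 in replicate 2. Their folds ran from 4.11 to 10.4 in replicate 1 and from 4.44 to 9.44 in replicate 2, all above 4, and 3 were shared. COL13A1, a transmembrane collagen of cell adhesions, had 3 peaks in each table at the same places, with 4.18, 4.09 and 6.61 in replicate 1 and 6.67, 6.39 and 8.57 in replicate 2. All 3 were higher in replicate 2. FACIT chains sit on fibrils of other collagens, and the median fold of their peaks was 2.63 in replicate 1 and 3.31 in replicate 2. COL16A1 had 6 and 3 peaks, with 4.63 and 3.75 at the strongest shared one, and COL9A2 had 2.97 and 2.41 at its shared peak. COL22A1, known from tissue junctions such as that of muscle and tendon, had 2 peaks in replicate 1 and 6 in replicate 2, with 6.17 and 5.77 at the stronger shared one.

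Peaks were more numerous on collagen genes than on other genes with a peak. The mean was 3.25 for 20 collagen chains in replicate 1 and 3.32 for 19 in replicate 2, beside 1.34 for 3174 and 1.38 for 3461 other protein-coding genes. At least 3 peaks were present on 12 of 20 chains and 11 of 19 chains (60% and 57.9%), beside 6.18% and 7.69% of the others. These values were not adjusted for transcript length or expression, and the part of either was not tested. A count of peaks depends on where neighbouring blocks were joined, and covered bases do not.

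The replicates were compared over those bases. Of the bases under collagen peaks, 75.5% of those in replicate 1 were also covered in replicate 2, and 70.8% of those in replicate 2 in replicate 1, beside 62.0% and 55.2% for other genes. These shares weigh each chain by its bases, so chains with long peaks count most. COL1A1 held 3983 and COL4A2 held 3423 of the 20358 collagen bases in replicate 1. The pooled shares therefore do not describe each chain. COL1A1 (98.5% of replicate 1 bases and 83.4% of replicate 2 bases) and COL6A1 (92.5% both ways) had most of their bases in both tables. So did COL4A2 (94.7% and 85.1%), COL6A2 (82.9% and 97.1%), COL6A3 (86.1% and 96.2%) and COL15A1 (100% both ways). Overlap was low for COL22A1 (40.3% and 26.1%), COL27A1 (37.3% and 40.8%) and COL16A1 (33.4% and 58.5%). It was also low for COL11A1 (36.7% and 50.6%), COL18A1 (39.9% and 44.2%) and COL7A1 (47.7% and 51.3%), and COL5A3 had no overlap. Counted as peaks, 46 of 65 (70.8%) and 41 of 63 (65.1%) overlapped the other table by at least 1 base, beside 62.5% and 55.8% of other genes' peaks. Over both tables this share was 68.0% for collagen peaks. It was 43.8% where 50% reciprocal overlap was asked for and 31.2% where midpoints had to lie within 100 nt. Midpoints are genomic positions with introns included, so they can lie far apart although most bases of a peak are shared. The long COL6A3 peak had 750 of 780 bases in both tables, but midpoints 59247 and 60772 nt from the gene start. The share for other genes was not measured under these stricter rules. The median absolute difference in log2 fold over shared peaks was 0.29 for collagens and 0.30 for other genes.

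**Figure D5:**
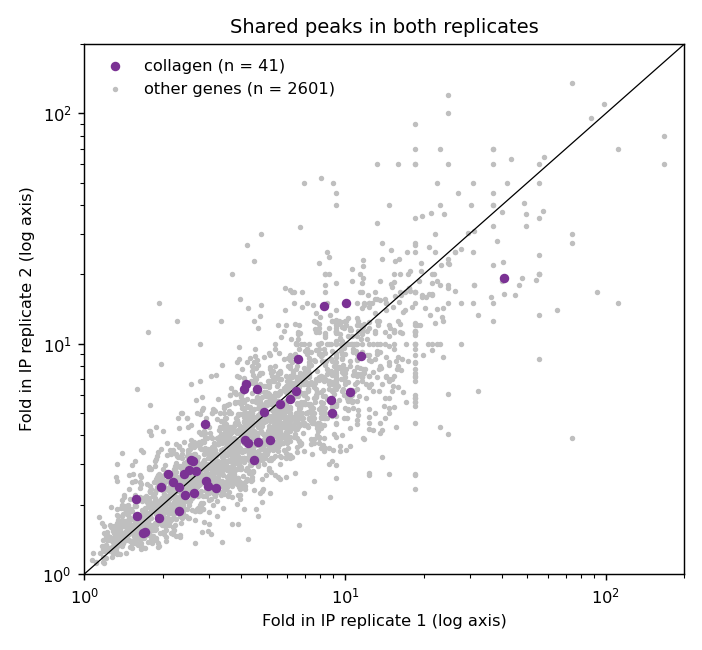
Fold of shared peaks in IP replicate 1 (x axis) against IP replicate 2 (y axis), both on log scales, with 41 collagen peaks in purple and 2601 peaks of other genes in grey and the line of equal folds in black. Collagen points follow the line, with COL15A1 at the upper right at 40.7 and 19.3.

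High folds in these tables can be whole multiples of a single value, 18.5 in replicate 1 and 10 in replicate 2, as held by 134 and 148 peaks. Of the collagen peaks, 1 in replicate 1 and 3 in replicate 2 reached that value and 0 were at such a multiple, to within 0.05, or to the nearest whole number for folds of 100 or more. Simple fractions of these values were not counted, so the 0 covers whole multiples only.

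The proteins that fold and finish collagen were set beside the chains. Of 18 genes for hydroxylation and folding, 7 had a same-place peak, beside 10.5% of all protein-coding genes. Led by SERPINH1, the collagen chaperone HSP47 (6.36 and 16.7), they included P3H4, a partner of the lysyl hydroxylases (3.58 and 5.00), and PPIB, a prolyl isomerase of the endoplasmic reticulum (2.81 and 2.71). Of 13 genes for cleavage and cross-linking, 5 had one, with BMP1, the procollagen C-proteinase (37.0 and 32.5), LOX, which oxidises lysines for cross-links (3.29 and 2.42), and LOXL2 (2.02 and 2.13) highest. The replicate 1 fold of BMP1 is a whole multiple of 18.5, the single value described above for that replicate. Of 7 collagen receptors, ITGB1 alone had one (4.11 and 1.91). Of these 7 named genes, which were taken by fold, 5 had 1 block in replicate 1, where PPIB and LOXL2 had 2, and all 7 had 1 block in replicate 2. The middle of the peak lay within 200 nt of the annotated start for 5 of the 7, beside 24.0% of 2598 shared peaks on genes other than collagen chains. Because the 7 were taken by fold, they do not stand for their lists and the 2 shares are not like for like.

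U2OS is labelled as a bone osteosarcoma line. Of 8 osteoblast markers, SPARC alone had a same-place peak, and of 4 cartilage markers MATN3 alone. Epithelial markers had 1 of 5 (KRT18), and blood and endothelial markers 0 of 3 each. A peak needs both expression and enrichment, so these counts do not measure cell identity.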

How the data were processed

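Peaks were taken from 1 deposited table for each IP replicate. The input libraries enter only through the authors' calls. STAR and GRCh38 are named, without versions, in the submitters' processing notes; for the peak caller, the sources used here give no name. Per the file headers, each peak has a p-value, log10 values of it and of its false discovery rate (used as a score), and a fold enrichment, a linear ratio deposited by the authors whose scaling is not given.

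Peaks were grouped by name, which matched the RefSeq table of GRCh38.p14 within 2000 nt for all 128 collagen peaks and 99.9% and 99.8% of all peaks. Peaks with at least 1 base in common on 1 strand counted as shared, and mutually best overlaps made pairs. Coordinates are 1-based. A gene family has no test of its own here: counts and medians stand beside those of all other genes. The overlap search was tested on simulated data. The members and lists were chosen with earlier results of these data known. Every chain with a row is named, and up to 3 genes for each pathway list by the lower fold of both replicates; TNNT1 was named after its value was seen. With no genome or transcript models used here, transcript regions and base composition of peaks were not analysed. The alternatives asked for 50% reciprocal overlap, for midpoints at most 100 nt apart, for a false discovery rate below the table's median or for a fold of 4 or more, or left out either replicate; inner block lengths and settings without COL1A1 were added after the data had been seen. Scripts ran in Python 3.11.15, on pandas 2.3.3 and numpy 2.4.6, and matplotlib 3.10.9 drew the figures.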

Additional observations from a re-analysis of the deposited data

How the results depend on the processing

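No paired analysis was possible because the results come from no test and the peak tables carry no counts. The 19 chains with a same-place peak became 18 with 50% reciprocal overlap (COL11A1 was lost), 14 with midpoints within 100 nt, 11 among peaks with a false discovery rate below each table's median and 10 with a fold of at least 4. With 1 replicate left out no overlap can be asked for, so all collagen peaks of the remaining replicate were counted. This gave 19 chains without replicate 1 and 20 without replicate 2, which does not test the same-place count. With a fold of at least 4, replicate 2 had 10 chains against 19. For all protein-coding genes no share was counted under these stricter rules, and 10.5% holds for the main rule only. Whether the collagen excess over all genes changed was therefore not tested. Peaks of other genes were also lost at the fold cut. Both folds were 4 or higher for 43.0% of their shared peaks, beside 36.6% of shared collagen peaks. The share of collagen peaks overlapping the other table, 68.0%, was 43.8% with 50% reciprocal overlap, 31.2% with midpoints within 100 nt and 56.1% below the median false discovery rate. The midpoint rule counts introns, so a peak of several blocks can fail it with most of its bases shared. The median lower fold, 2.91, was 3.44 with 50% reciprocal overlap, 3.41 with midpoints within 100 nt, 3.36 below the median false discovery rate, 5.74 with a fold of at least 4 and 3.81 by the strongest shared peak of each chain. Over all collagen peaks of a single replicate, the median fold was 2.97 in replicate 1 and 3.12 in replicate 2. The 2 shared peaks near gene starts became 3 by the outer span and 1 without COL1A1, and the 1 near a gene end became 2 by the outer span. Among all collagen peaks of a single replicate, shared or not, 2 lay near a gene start and 2 near a gene end in each replicate. Without COL1A1, 80.2% of inner blocks were multiples of 9 (82.3% with it) and 90.8% of collagen peaks had more than 1 block (88.3% with it). The settings without COL1A1, and the inner blocks and block counts, were chosen after seeing the data. The stricter settings keep fewer peaks by construction, and for the other changes the cause was not tested. Of 44 alternatives, 25 moved a value by less than the spread between replicates or a count by at most 1.5 times. For the difference in log2 fold, the spread was the standard deviation over shared peaks instead. The 44 include settings with 1 replicate left out, some of which measured another quantity, as described above.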

Other observations

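COL1A1 had 2 peaks in replicate 2 with no counterpart in replicate 1, both toward the gene end, with folds of 1.56 and 1.40 and log10 p of -11.4 and -27.8. COL6A2 had a peak with a fold of 1.49 in replicate 1, with its middle 148 nt from the gene end, with no counterpart in replicate 2. COL27A1 had its last peak in replicate 2 alone, with its middle 1251 nt from the gene end, with a fold of 4.05, and the span of LOC105376224 also covers it.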
